A study of Mus musculus with 2 samples.

Results

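The 4 genes of calcium/calmodulin-dependent protein kinase II (CaMKII; Camk2a, Camk2b, Camk2d and Camk2g) and 3 genes of the phosphatase calcineurin (Ppp3ca, Ppp3cb and Ppp3r1) were followed across 2 coronal sections of mouse brain. They were taken by symbol, 7 of the 32285 genes counted, and each symbol belonged to a single row. The method was Visium, an array of barcoded spots that capture RNA from the tissue laid over them, so that a spot holds several cells or parts of cells. Each section came from 1 adult male ArcCreERT2::eYFPflx mouse on a C57BL/6 background, in which the Arc promoter drives a tamoxifen-dependent Cre and Cre switches on eYFP. The mouse labelled trained had learned active place avoidance, in which a mild shock on a rotating arena marks a zone to be avoided, and the mouse labelled untrained had been on the same arena with the shock always off. Both had been habituated without shock, tested for retention without shock and killed after that test. With 1 section per label (n = 1 and n = 1), a difference between the labels cannot be told apart from one between the 2 mice or their libraries, and no p-value was computed. The labels may be exchanged. At least 1 UMI of the activity genes Egr1 and Jun was found in 251 and 176 of the 557 hippocampal spots of the section labelled trained, and in 381 and 307 of the 539 of the section labelled untrained, which was also the deeper one (median 17075 against 5435 UMIs per hippocampal spot). The study's text gives the larger number for both genes, and the smaller hippocampus, to the trained mouse, and its numbers for Egr1 and Jun lie close to those of the section with the other label. Arc had 201 and 338 such spots. For Arc the study's text also gives the larger number to the trained mouse, but that number lies close to the section labelled trained and its number for the untrained mouse lies close to neither, so the question was not settled. Below, "trained" and "untrained" name the sections as labelled, and every ratio of trained over untrained would change sign if the labels were exchanged.

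CaMKII is a kinase that is switched on by calcium-bound calmodulin and can stay active after calcium has fallen, and it is needed for long-term potentiation at hippocampal synapses. Its alpha and beta subunits, from Camk2a and Camk2b, make up most of the enzyme in forebrain neurons, and the beta subunit binds actin. The gamma and delta subunits, from Camk2g and Camk2d, are found in many tissues. Calcineurin removes phosphate groups in response to the same calcium signal and takes part in long-term depression. It pairs a catalytic A subunit, encoded in brain mainly by Ppp3ca and Ppp3cb, with a calcium-binding regulatory B subunit, encoded by Ppp3r1. Camk2a mRNA is known for its transport into dendrites, where it can be translated near synapses.

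On GRCm38 (mm10, GENCODE vM21) Camk2a (ENSMUSG00000024617) lies on chromosome 18 from 60925618 to 60988152 on the plus strand, and Camk2b (ENSMUSG00000057897) on chromosome 11 from 5969644 to 6066362 on the minus strand. Camk2d (ENSMUSG00000053819) lies on chromosome 3 from 126596302 to 126846326 on the plus strand. Camk2g (ENSMUSG00000021820) and Ppp3cb (ENSMUSG00000021816) both lie on the minus strand of chromosome 14, from 20734875 to 20794088 and from 20499364 to 20546573. Ppp3ca (ENSMUSG00000028161) lies on chromosome 3 from 136670124 to 136937727 and Ppp3r1 (ENSMUSG00000033953) on chromosome 11 from 17159263 to 17200375, both on the plus strand. Ppp3r1 shares part of its span with Wdr92 on the same strand, which held 127 and 209 UMIs in the trained and untrained section against 14317 and 25211 for Ppp3r1. The antisense gene that overlaps Ppp3cb, 1810062O18Rik, held 79 and 111 UMIs against 8158 and 13599. Reads in the shared stretches could not be assigned with certainty.

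The trained section held 4152 spots with 29515831 UMIs (unique molecular identifiers, 1 per captured RNA molecule) and the untrained section 3738 spots with 59029131 UMIs. Levels were pooled over the spots of a region and scaled to a total of 1000000 (CPM). Their 95% intervals cover counting error only. Clustering without the 7 genes and without the pathway, dendritic, neuronal and cell type lists used below gave 22 regions, 7 of them hippocampal. The markers of the cell layers were not excluded from it. The cell layers of CA1, CA3 and the dentate gyrus (DG) were compact bands of 53, 28 and 59 spots in the trained section and 53, 32 and 58 in the untrained section. Around them lay 3 classes of border spots, which kept part of the layer's marker RNA and included neighbouring dendritic strata. The remaining hippocampal spots, 137 and 67, were taken as neuropil. A further subcluster of 5 and 40 spots, led by the hypothalamic gene Agrp, lay outside the outline of the hippocampus and gave 0 spots to this class in either section. All 5 CA1 markers, 6 of 7 CA3 markers and all 7 DG markers reached 5 CPM in their own layer in both sections, and each summed marker level was highest there. Each layer had been chosen as the subcluster with the highest score for these same markers, so this was largely fixed by the choice and is no separate check. The name neuropil stands for hippocampal spots with low scores for the layers' markers and was not borne out by markers of its own, since the list fixed for it summed to 1091 and 1364 CPM there against 5554 and 5891 CPM in the CA1 cell layer. The neuropil spots were shallow (median 2197 and 6916 UMIs, against 14258.5 and 30971 in the cell layers), and 109 of 137 and 52 of 67 lay on the left side.

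**Figure D1:**
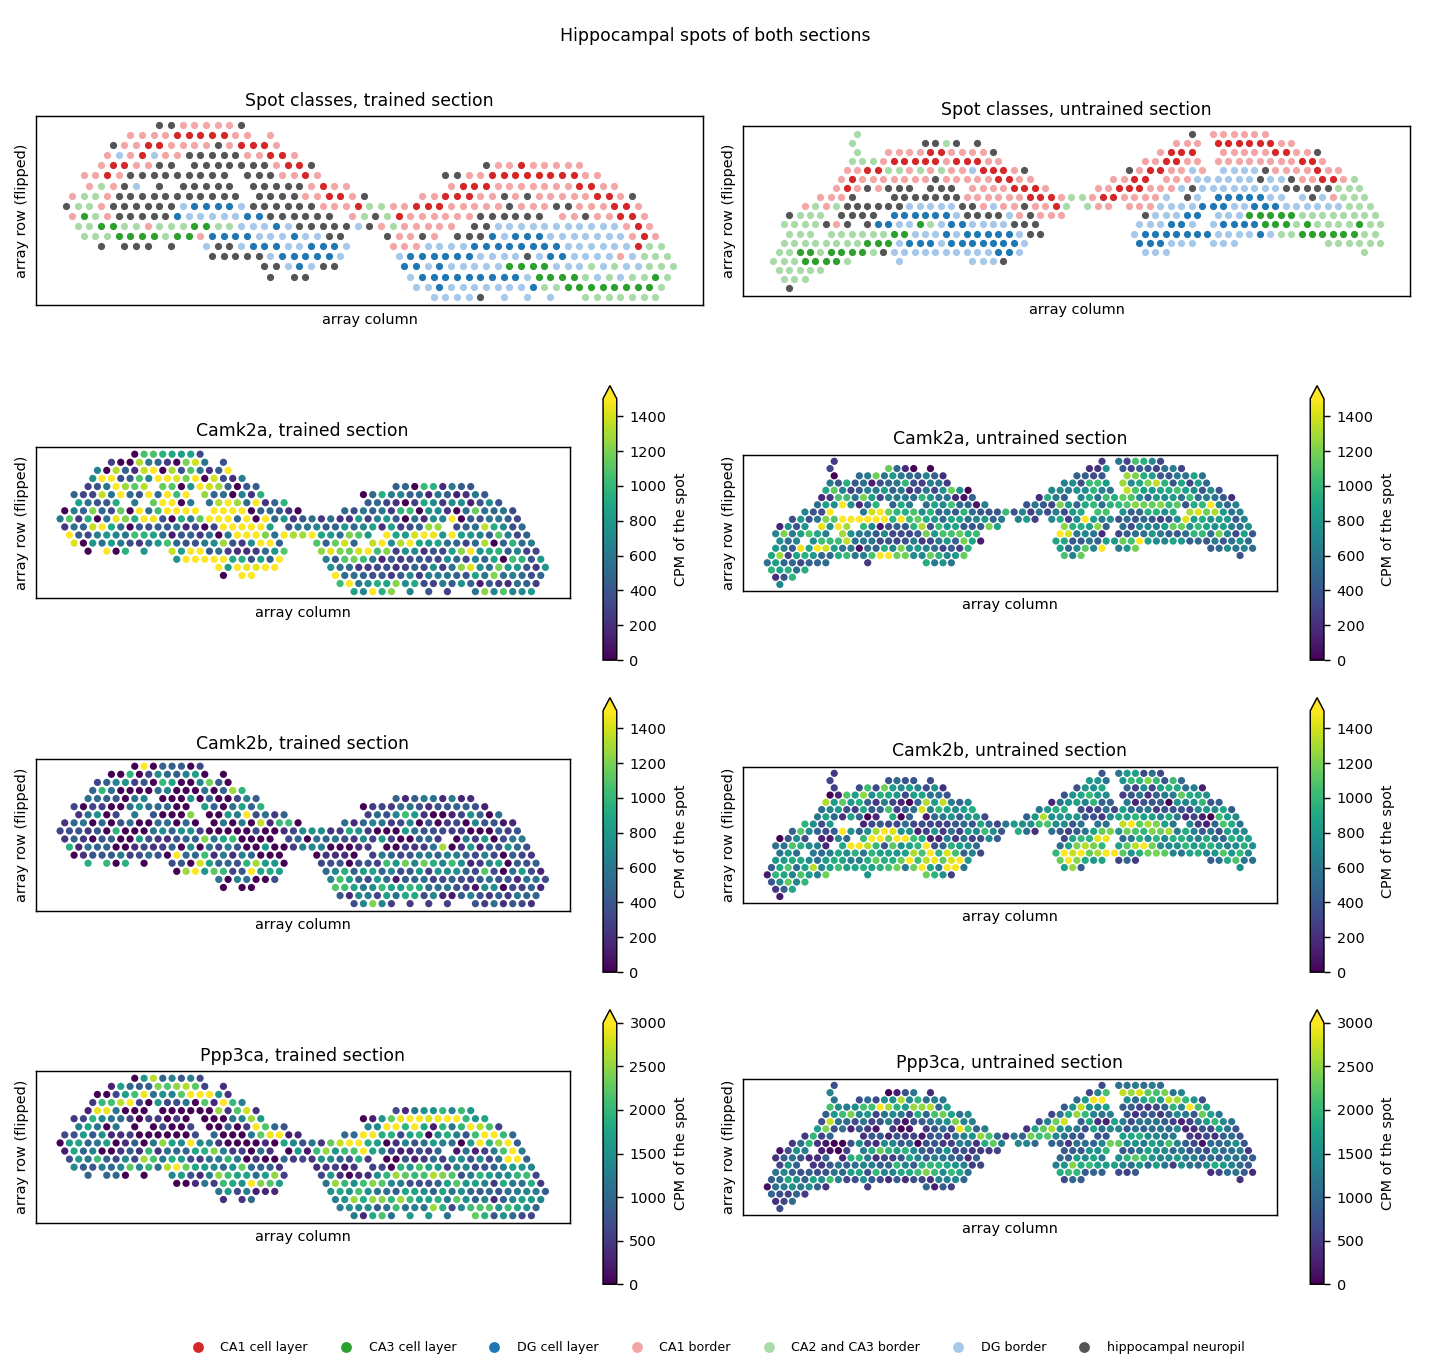
Hippocampal spots at their array positions, the trained section on the left and the untrained section on the right. The top row colours the 7 classes of spots, and the rows below give the CPM of Camk2a, Camk2b and Ppp3ca in each spot, with each colour scale capped at its top value. Camk2a is brightest between the cell layers, Camk2b over the DG cell layer of the untrained section, and Ppp3ca along the CA1 cell layer.

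Camk2a was the only tested member that was higher in neuropil than in the cell layers past 1.5-fold, and it was so in both sections. Its neuropil level was 1124 CPM in the trained section (382 UMIs, 1014 to 1242) and 893 CPM in the untrained section (493 UMIs, 816 to 975). In the cell layers together it was 476 CPM (994 UMIs, 447 to 506) and 544 CPM (2611 UMIs, 524 to 566). The 2 sections did not overlap in either place and stood in opposite order, with the trained section higher in neuropil and lower in the layers. In neuropil the trained section was higher on the left side (1275 against 898 CPM) and not on the right (825 against 883 CPM). The neuropil of the sections differed in make-up. A subcluster led by Ddn, Hopx and Sowaha gave 102 of the 137 trained and 20 of the 67 untrained spots, and one led by Cabp7, Ddn and Dio2, with the astrocyte gene Gfap and the microglial gene P2ry12 among its leading genes, gave 35 and 47. Among the region marker lists, the former scored highest for the DG granule layer (0.72) and the latter for meninges and vessels (0.996). Within the former, Camk2a was 1293 CPM (1146 to 1454) and 1219 CPM (1029 to 1432), and within the latter 826 CPM (674 to 1003) and 802 CPM (719 to 891). Within each subcluster the sections overlapped, and in both sections each lay above the cell layers. The log2 ratio of neuropil over cell layers was 1.24 (1.07 to 1.41) in the trained section and 0.71 (0.57 to 0.85) in the untrained section, and exceeded that of 97.0% and 96.0% of the genes with at least 200 UMIs in these spots. Genes met that minimum mainly through the cell layers, which favours genes that are low in neuropil. Past 1.5-fold higher in neuropil were 6.0% of 2368 genes in the trained section and 4.63% of 4578 in the untrained section. With border spots counted as neuropil, the Camk2a ratio was 0.65 and 0.50, the latter inside 1.5-fold. In a spot, fewer cells of a type and less RNA per cell cannot be told apart.

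The ratio held against each layer and on each side. Against the CA1 cell layer it was 1.47 (1.25 to 1.69) and 0.92 (0.75 to 1.09), against the CA3 cell layer 1.30 (1.06 to 1.54) and 0.63 (0.47 to 0.80), and against the DG cell layer 1.02 (0.82 to 1.22) and 0.62 (0.46 to 0.77). On the left side it was 1.47 and 0.80 and on the right side 0.78 and 0.66 in the trained and untrained section. The right side of the trained section had 28 neuropil spots with 94 UMIs of Camk2a.

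Camk2b and Camk2g ran the other way or were close to even, and Camk2d was too sparse to place. Camk2b, the actin-binding partner of Camk2a in the same enzyme, stood at 303 CPM (247 to 367) and 400 CPM (349 to 457) in neuropil, against 603 CPM (570 to 637) and 1049 CPM (1020 to 1078) in the cell layers. Its log2 ratio was -0.99 (-1.30 to -0.70) and -1.39 (-1.59 to -1.20). It was lowest against the DG cell layer, at -1.40 and -1.72, and nearer 0 against the CA3 cell layer, at -0.55 and -1.04. Camk2g stood at 88.2 and 79.7 CPM in neuropil against 129 and 143 CPM in the cell layers, with a ratio of -0.52 (-1.14 to 0.00) in the trained section, inside 1.5-fold, and -0.83 (-1.32 to -0.40) in the untrained section. Its ratio was -1.16 (-1.79 to -0.61) and -1.35 (-1.84 to -0.91) against the DG cell layer, where Camk2g reached 200 and 205 CPM, 0.01 (-0.67 to 0.64) and -0.48 (upper bound -0.01) against the CA1 cell layer, and, against the CA3 cell layer, 0.21 (-0.53 to 0.93) and 0.02 (-0.54 to 0.54). Camk2d was sparse in the hippocampus, with 90 and 250 UMIs in all, and fell below the minimum of 200 UMIs for these spots. It had 8 and 19 UMIs in neuropil and 39 and 78 in the cell layers, and its ratio of 0.40 (-0.97 to 1.45) and 1.11 (0.27 to 1.82) was 0.42 and 1.80 on the left side and 0.66 and -0.48 on the right side.

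The 3 calcineurin genes were concentrated in the cell layers. Ppp3ca, the main catalytic subunit in neurons, stood at 2267 CPM (2203 to 2333) and 1894 CPM (1855 to 1933) in the cell layers and at 500 CPM (428 to 581) and 656 CPM (590 to 727) in neuropil, a log2 ratio of -2.18 (-2.41 to -1.96) and -1.53 (-1.69 to -1.38). Ppp3cb, the other catalytic subunit, stood at 540 and 391 CPM in the cell layers and 176 and 183 CPM in neuropil, a log2 ratio of -1.60 (-2.01 to -1.24) and -1.09 (-1.40 to -0.81). Ppp3r1, the regulatory subunit, stood at 1182 and 1085 CPM in the cell layers and 341 and 335 CPM in neuropil, a log2 ratio of -1.79 (-2.07 to -1.52) and -1.69 (-1.91 to -1.48). Of the genes tested, 2.20% and 4.54% had a lower ratio than Ppp3ca, 6.67% and 2.12% a lower ratio than Ppp3r1, and 10.8% and 16.4% a lower ratio than Ppp3cb.

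Most genes were lower in neuropil per UMI. The median log2 ratio over all genes tested was -0.78 in the trained section and -0.58 in the untrained section, and 61.9% and 49.8% of the genes were lower past 1.5-fold. Against this background 4 of the 6 tested members were lower in the trained section (Camk2b, Ppp3ca, Ppp3cb and Ppp3r1) and 5 of 6 in the untrained section (these and Camk2g), so the count alone did not set the members apart. The median over the 6 was -1.29 and -1.24. Mitochondrially encoded genes took 28.1% and 29.0% of the UMIs in neuropil against 4.94% and 8.95% in the cell layers, and with them left out of the total the Camk2a ratio was 1.64 and 1.07. Scaled to 10 general neuronal genes, the Camk2a ratio was 2.53 and 1.78 and those of Ppp3ca and Ppp3r1 stayed below 0, at -0.89 and -0.47 for Ppp3ca and -0.50 and -0.63 for Ppp3r1, while Ppp3cb moved to -0.32 and -0.03. On that scale Camk2b turned to 0.30 in the trained section and was -0.32 in the untrained section, and Camk2g turned to 0.76 and 0.24.

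**Figure D2:**
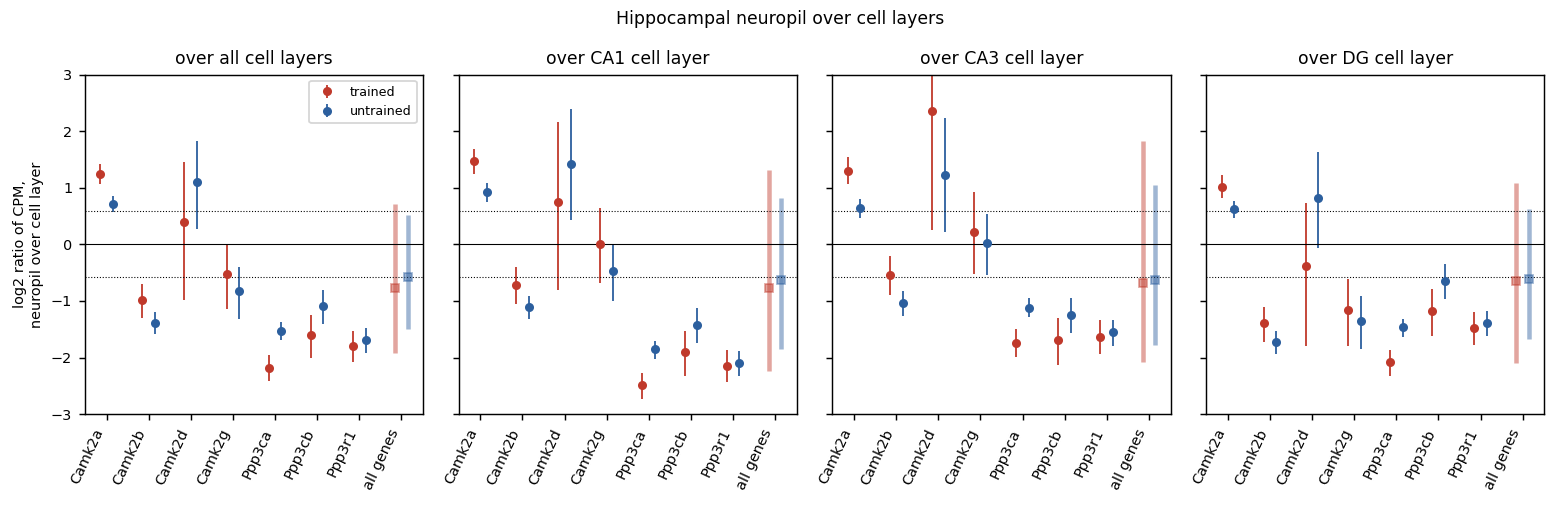
The log2 ratio of CPM in hippocampal neuropil over all cell layers and over each of the 3 layers, for the 7 genes in both sections, with 95% counting intervals, dotted lines at 1.5-fold and squares for the median of all genes tested with bars from the 5th to the 95th percentile. Camk2a lies above 0 in every panel and Camk2b, Ppp3ca, Ppp3cb and Ppp3r1 lie below 0 in every panel. The upper end of the Camk2d interval against the CA3 cell layer of the trained section is cut off by the axis.

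Levels were also read by distance from the cell layers in place of the neuropil and border classes. The spots of those classes were included. Hippocampal spots were grouped by grid steps from the nearest cell layer, as far as a step held at least 10 spots, and spots equally near to 2 layers were left out. From the CA1 cell layer outward, Camk2a was 406, 639 and 703 CPM at 0, 1 and 2 steps in the trained section and 471, 666 and 727 CPM in the untrained section. From the DG cell layer it was 554, 978 and 1169 CPM and 581, 936 and 971 CPM. In both layers and sections the interval at 0 steps lay below that at 1 step, while the intervals at 1 and 2 steps overlapped. From the CA3 cell layer it was 457, 601 and 712 CPM in the trained section and 575, 760, 689 and 686 CPM at 0 to 3 steps in the untrained section, with no rise past 1 step there and an interval at 3 steps that overlapped that at 0. Ppp3ca ran the other way from the CA1 cell layer, with 2816, 1506 and 796 CPM in the trained section and 2374, 1287 and 870 CPM in the untrained section, and no 2 neighbouring intervals overlapped. From the DG cell layer it was 2123, 1066 and 814 CPM and 1813, 1065 and 912 CPM, and from the CA3 cell layer 1668, 1187 and 772 CPM and 1422, 1013, 963 and 681 CPM. Its interval at 0 steps lay above all others in each case, while those at 1 and 2 steps overlapped around the DG cell layer of the trained section and the CA3 cell layer of the untrained section. Camk2b from the DG cell layer was 801, 477 and 339 CPM and 1324, 881 and 532 CPM. Around the CA3 cell layer of the untrained section Camk2b was 824, 844, 704 and 579 CPM at 0 to 3 steps, with an interval at 1 step that overlapped that at 0. Ppp3cb was 573, 454 and 205 CPM around the CA3 cell layer of the trained section, and 435, 297, 338 and 418 CPM around that of the untrained section, where the interval at 3 steps overlapped that at 0. Median depth fell with distance, from 13687 to 4120 and 2789 UMIs per spot around the CA1 cell layer of the trained section.

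Other genes of the pathway were read from fixed lists. Among 12 CaMKII regulators and related kinases, 7 and 9 could be tested, none was higher in neuropil past 1.5-fold, and 5 and 6 were lower, where 61.9% and 49.8% of all genes tested were lower. The 5 that were lower in both sections were the calmodulin genes Calm2 (-1.77 and -1.40) and Calm3 (-0.98 and -0.75), the kinase kinase Camkk1 (-1.64 and -1.14), Camk1d (-0.90 and -1.64) and the pseudokinase Camkv (-1.33 and -1.35). Camk2n1, which encodes an inhibitor protein of CaMKII and is named here after its values were seen, stood at 0.07 (-0.17 to 0.30) and -0.29 (-0.46 to -0.13). Among 17 calcineurin partners and targets, 5 and 9 could be tested and 5 and 7 were lower, none higher, against the same shares of all genes. Lower in both sections were Dnm1, which encodes the calcineurin substrate dynamin 1 (-1.41 and -1.18), the phosphatase 1 inhibitor Ppp1r1a (-1.17 and -1.26) and the phosphatase 1 catalytic genes Ppp1ca (-0.98 and -0.68), Ppp1cb (-0.78 and -0.69) and Ppp1cc (-1.89 and -0.74). The median log2 ratio was -0.98 and -1.14 for the first list and -1.17 and -0.74 for the other.

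Of 9 mRNAs known from dendrites, 7 and 9 could be tested, of which 4 and 3 were higher in neuropil and 1 and 1 lower, where 6.0% and 4.63% of all genes tested were higher, with a median of 0.88 and 0.53. Higher in both sections were the postsynaptic scaffold gene Shank1 (1.58 and 1.19) and Ppp1r9b, which encodes spinophilin, an anchor of phosphatase 1 in spines (1.12 and 0.61). Ddn, which encodes the postsynaptic protein dendrin, stood at 1.05 and 0.58, just inside 1.5-fold in the untrained section. It therefore falls outside the rule for naming genes of the lists. Cyfip2 was lower in both (-1.08 and -0.76). All 10 general neuronal genes were below 0 in both sections, 9 and 10 of them past 1.5-fold, with a median of -1.20 and -1.01. Glial RNA moved with the neuropil class. Summed astrocyte markers were 5327 and 4154 CPM in neuropil against 1262 and 1343 CPM in the cell layers, oligodendrocyte markers 4130 and 4909 against 987 and 1395 CPM, microglia markers 662 and 567 against 166 and 212 CPM, endothelial markers 718 and 1085 against 420 and 647 CPM, and interneuron markers 1012 and 842 against 744 and 732 CPM. No astrocyte, oligodendrocyte or microglia marker was at 0 in either place. The part of these cells in the ratios of the 7 genes was not tested.

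Across the whole section the genes fell into 3 patterns. Camk2a, Camk2b, Ppp3ca, Ppp3cb and Ppp3r1 were higher in the hippocampus than in the rest of the section, Camk2d was lower, and Camk2g was close to even. The log2 ratio of hippocampus over rest was 1.64 (1.57 to 1.71) and 1.58 (1.54 to 1.62) for Camk2a, 1.59 and 1.55 for Camk2b, 1.64 and 1.70 for Ppp3ca, 1.14 and 1.25 for Ppp3r1 and 0.80 and 0.62 for Ppp3cb. It was -0.27 (-0.42 to -0.13) and -0.07 (-0.16 to 0.02) for Camk2g and -1.78 (-2.10 to -1.48) and -1.67 (-1.87 to -1.49) for Camk2d. The left and right side of the hippocampus differed by at most 0.33 on the log2 scale for all genes but Camk2d, which was 0.57 (0.19 to 0.94) higher on the left side of the untrained section. Camk2a was the gene with the largest such side difference in the trained section, at 721 CPM on the left and 574 CPM on the right.

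**Figure D3:**
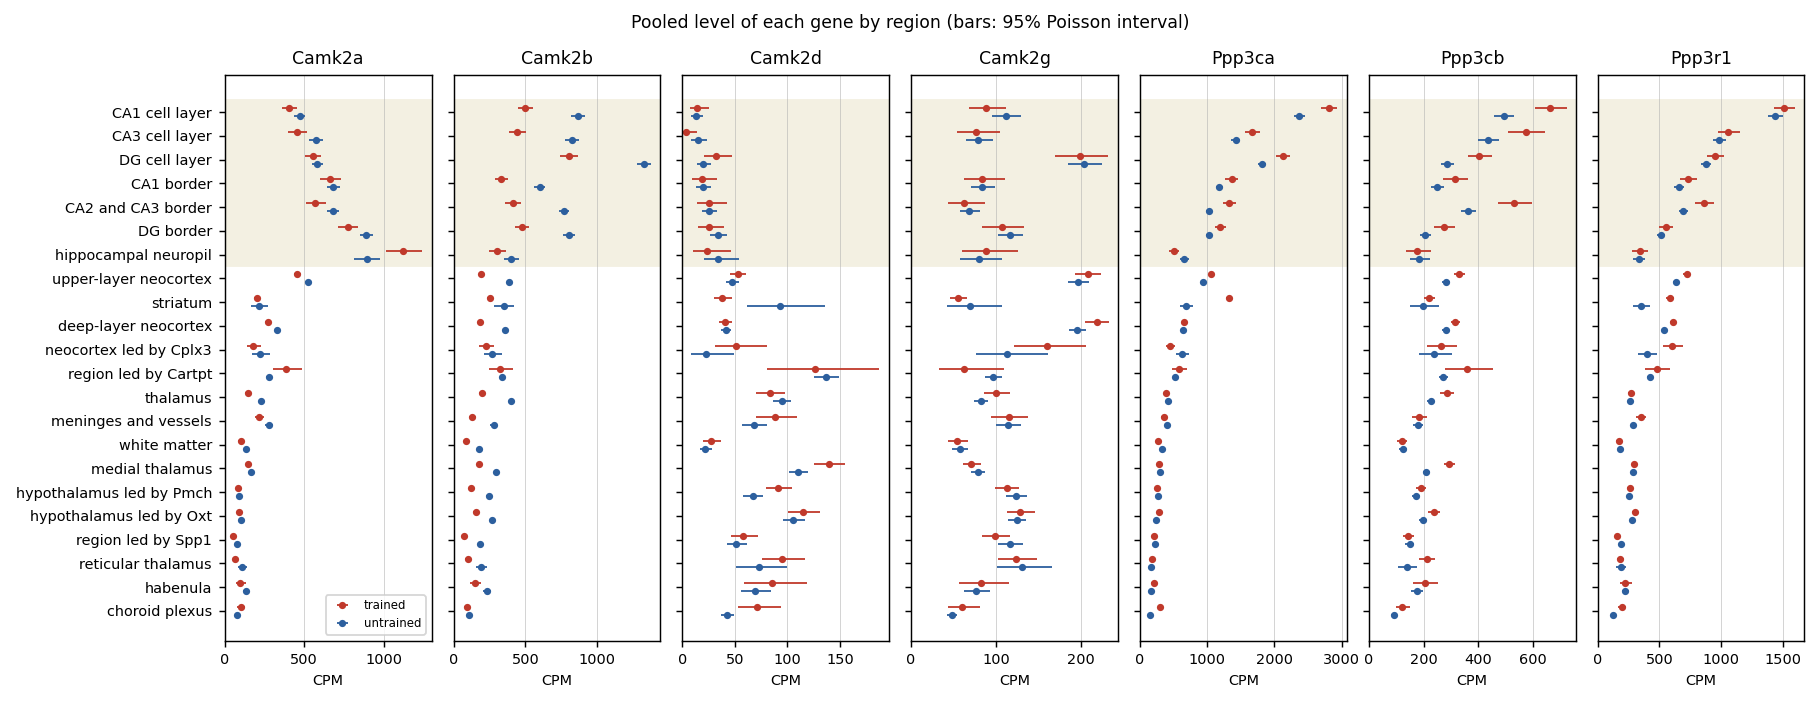
Pooled CPM of each gene in the 22 regions, hippocampal regions on shaded ground, with 95% Poisson intervals for both sections. Camk2a is highest in hippocampal neuropil and the DG border, Camk2b in the DG cell layer, Ppp3ca, Ppp3cb and Ppp3r1 in the CA1 cell layer, Camk2d outside the hippocampus, and Camk2g in neocortex and the DG cell layer.

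Outside the hippocampus, Camk2a was highest in upper-layer neocortex, with 456 CPM (433 to 479) in the trained section and 526 CPM (506 to 545) in the untrained section. In both sections this overlapped the intervals of the CA1 and CA3 cell layers, its neighbours in order. Its lowest levels were 51.8 CPM in a region led by Spp1, Syt2 and Pvalb in the trained section and 77.5 CPM in choroid plexus in the untrained section, a span of 21.7-fold and 11.5-fold over the regions. Camk2b was highest in the DG cell layer, at 801 and 1324 CPM, above every other region in both sections. It was next highest in the CA1 cell layer, at 499 and 866 CPM, where it overlapped the regions that followed.

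Camk2d had the reverse distribution. It was highest in medial thalamus, led by Ctxn3, Gbx2 and Cbln1, with 139 CPM in the trained section, and in a region led by Cartpt with 137 CPM in the untrained section, and it reached 115 and 106 CPM in the hypothalamic region led by Oxt. It was lowest in the CA3 cell layer of the trained section (3.93 CPM from 2 UMIs, 0.475 to 14.2) and in the CA1 cell layer of the untrained section (12.9 CPM from 20 UMIs). Camk2g was highest in 3 regions whose intervals overlapped, deep-layer neocortex (220 and 196 CPM), upper-layer neocortex (208 and 197 CPM) and the DG cell layer (200 and 205 CPM), and lowest in white matter of the trained section (54.6 CPM) and choroid plexus of the untrained section (48.0 CPM). Its span of 4.02-fold and 4.27-fold was the narrowest of the 7.

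All 3 calcineurin genes were highest in the CA1 cell layer, and Ppp3ca differed from Ppp3cb and Ppp3r1 in the order of the other layers. Ppp3ca was highest in the CA1 cell layer (2816 and 2374 CPM), then in the DG cell layer (2123 and 1813 CPM) and the CA3 cell layer (1668 and 1422 CPM), with intervals that did not overlap. Ppp3r1 was highest in the CA1 cell layer (1509 and 1436 CPM) and came next in the CA3 cell layer (1058 and 985 CPM) and then in the DG cell layer (951 and 877 CPM), which overlapped with it in the trained section. Ppp3cb was highest in the CA1 and CA3 cell layers (663 and 492 CPM, 573 and 435 CPM), whose intervals overlapped, and lower in the DG cell layer (403 and 287 CPM). In striatum Ppp3ca reached 1327 CPM (1279 to 1376) over 218 spots of the trained section and 685 CPM (593 to 787) over 32 spots of the untrained section.

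The make-up of the CaMKII transcripts changed with region. A share of pooled UMIs does not depend on the total it is scaled to, but deep spots weigh more in it, and with spots thinned to 1000 UMIs the Camk2a share of the hippocampus was 61.1% and 47.5% against 49.6% and 40.5% pooled. Camk2a made up 73.0% (69.0 to 76.8%) of the CaMKII UMIs of neuropil in the trained section and 63.4% (60.0 to 66.8%) in the untrained section, the highest share of any region in both. In the cell layers together it made up 38.8% (36.9 to 40.7%) and 31.1% (30.1 to 32.1%). The number of Camk2a UMIs per Camk2b UMI was 3.70 (2.98 to 4.66) and 2.23 (1.90 to 2.63) in neuropil, against 0.789 (0.725 to 0.858) and 0.519 (0.495 to 0.544) in the cell layers. Among the layers it was highest in CA3, at 1.03 (0.855 to 1.24) and 0.699 (0.633 to 0.770), and lowest in DG, at 0.691 (0.611 to 0.780) and 0.439 (0.410 to 0.471). Capture may differ between genes, so these ratios are compared between regions and not read as a stoichiometry.

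Camk2g and Camk2d took their largest shares outside the hippocampus. Camk2d made up 1.69% and 1.36% of CaMKII UMIs in the hippocampus against 12.8% and 10.2% in the rest of the section. Its highest shares were 25.8% in medial thalamus of the trained section and 17.7% in the hypothalamic region led by Oxt of the untrained section. Camk2g made up 8.66% and 6.77% in the hippocampus against 22.3 to 23.7% (95% interval) and 16.6% in the rest, and was highest in the region led by Spp1, at 34.8% and 27.0%. Within the hippocampus its share was highest in the DG cell layer, at 12.6% and 9.61%.

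**Figure D4:**
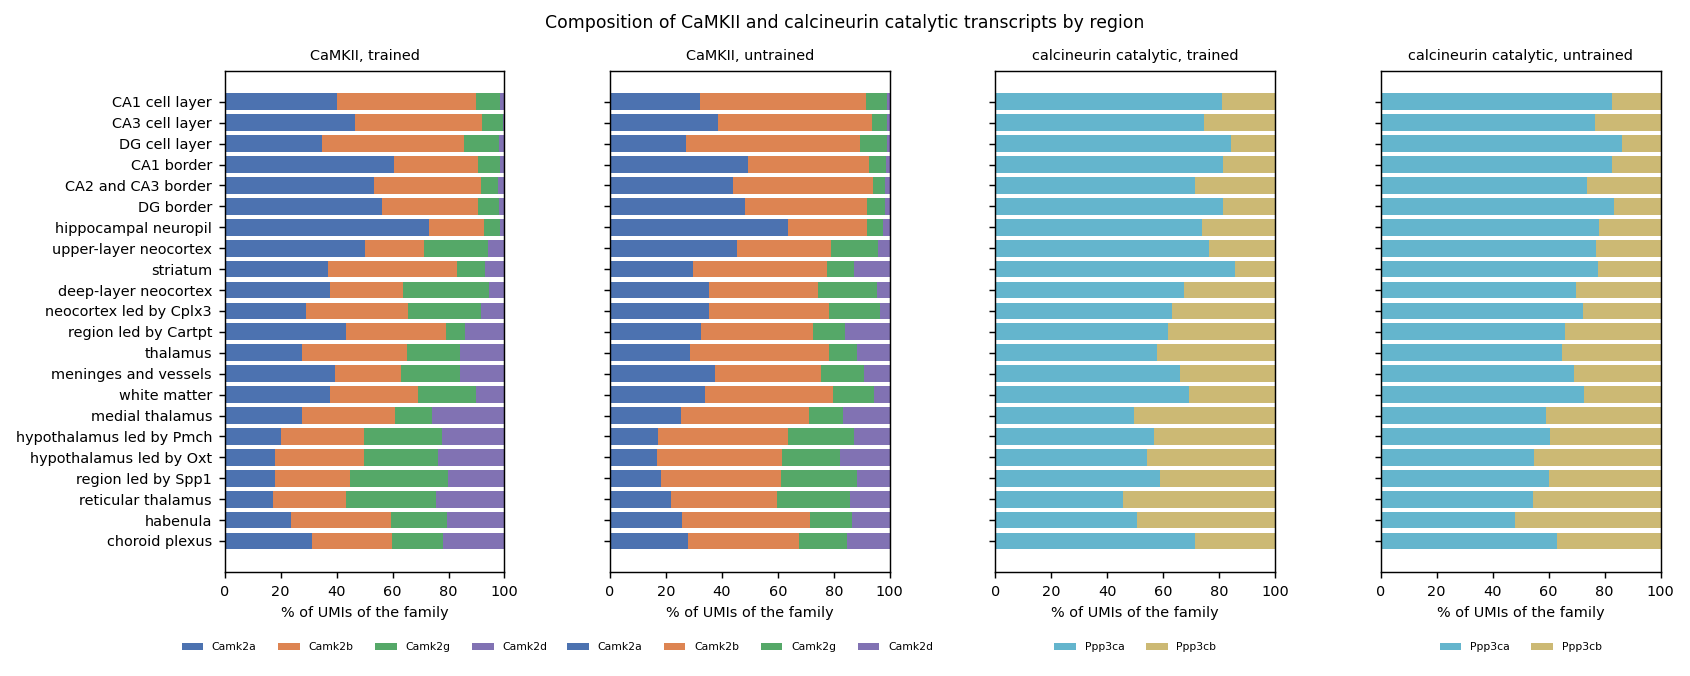
Share of each gene in the summed UMIs of its family by region and section, as stacked bars from 0 to 100%, for the 4 CaMKII genes on the left and the 2 catalytic calcineurin genes on the right. The Camk2a share peaks in hippocampal neuropil at 73.0% and 63.4%, the Camk2d and Camk2g shares are widest outside the hippocampus, and the Ppp3ca share is widest in the DG cell layer and in striatum of the trained section.

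Among the catalytic calcineurin transcripts Ppp3ca made up 79.7% (78.8 to 80.5%) and 81.4% (80.8 to 82.0%) in the hippocampus and 68.7% and 67.4% in the rest of the section. Its share was 84.0% and 86.4% in the DG cell layer, 80.9% and 82.8% in the CA1 cell layer and 74.4% and 76.6% in the CA3 cell layer. In neuropil it was 73.9% (67.7 to 79.5%) and 78.2% (74.1 to 81.9%), below the 80.8% (79.7 to 81.8%) and 82.9% (82.2 to 83.6%) of the cell layers together. The lowest shares were 45.6% in reticular thalamus of the trained section and 47.9% in habenula of the untrained section. Ppp3r1, the regulatory subunit, had 0.424 UMIs per catalytic UMI (0.409 to 0.441) and 0.467 (0.455 to 0.479) in the hippocampus, and 0.519 (0.507 to 0.531) and 0.528 (0.518 to 0.538) in the rest. It was lower in the DG cell layer, at 0.376 (0.346 to 0.409) and 0.418 (0.395 to 0.442), than in the CA3 cell layer, at 0.472 (0.425 to 0.523) and 0.530 (0.494 to 0.568).

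Between the sections Camk2b was the tested member that differed past 1.5-fold in the hippocampus. It stood at 496 CPM (2127 UMIs, 475 to 517) in the trained section and 853 CPM (9452 UMIs, 835 to 870) in the untrained section, a log2 ratio of trained over untrained of -0.78 (-0.85 to -0.71), with -0.82 on the left side and -0.77 on the right. Of 5722 genes with at least 400 hippocampal UMIs, 1.38% had a lower ratio, 4.12% were lower past 1.5-fold and 8.67% were higher. Scaled to the general neuronal genes these shares were 7.24% and 4.74% and the median of all genes moved from 0.07 to -0.04, with Camk2b at -0.90, and without mitochondrially encoded genes they were 6.12% and 5.7%. With every spot thinned to 1000 UMIs they were 11.3% and 12.4%. The difference was not particular to the hippocampus. Camk2b had a ratio of -0.82 (-0.87 to -0.77) in the rest of the section, was below 0 in all 22 regions and had an interval below 0 in 19. It was nearest 0 in the region led by Cartpt (-0.08) and lowest in the region led by Spp1 (-1.27).

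The other members differed less in the hippocampus. Camk2a had a ratio of -0.13 (-0.19 to -0.06), with 0.11 on the left side and -0.23 on the right. The ratio was 0.28 (0.24 to 0.32) for Ppp3ca, 0.44 (0.36 to 0.52) for Ppp3cb and 0.17 (0.12 to 0.22) for Ppp3r1, and each of these 3 was above 0 on both sides. With every spot thinned to 1000 UMIs these ratios were 0.17, 0.07 and 0.02, and as the mean of the CPM of single spots 0.11, 0.25 and 0.05, so their size depended on how spots of unequal depth were weighted. Camk2g had -0.06 (-0.22 to 0.09). Camk2d, whose 340 UMIs in all lay below the minimum of 400, had -0.10 (-0.47 to 0.25). The middle of all genes tested lay at 0.07, and 5% of them lay below -0.55 and 5% above 0.69, and all members but Camk2b lay between these values. Ppp3ca differed most in choroid plexus, at 0.98 (0.75 to 1.20), and striatum, at 0.95 (0.75 to 1.17). The number of spots in those regions was 73 and 164 for choroid plexus and 218 and 32 for striatum, so a difference in the tissue under the spots cannot be told apart from the label.

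**Figure D5:**
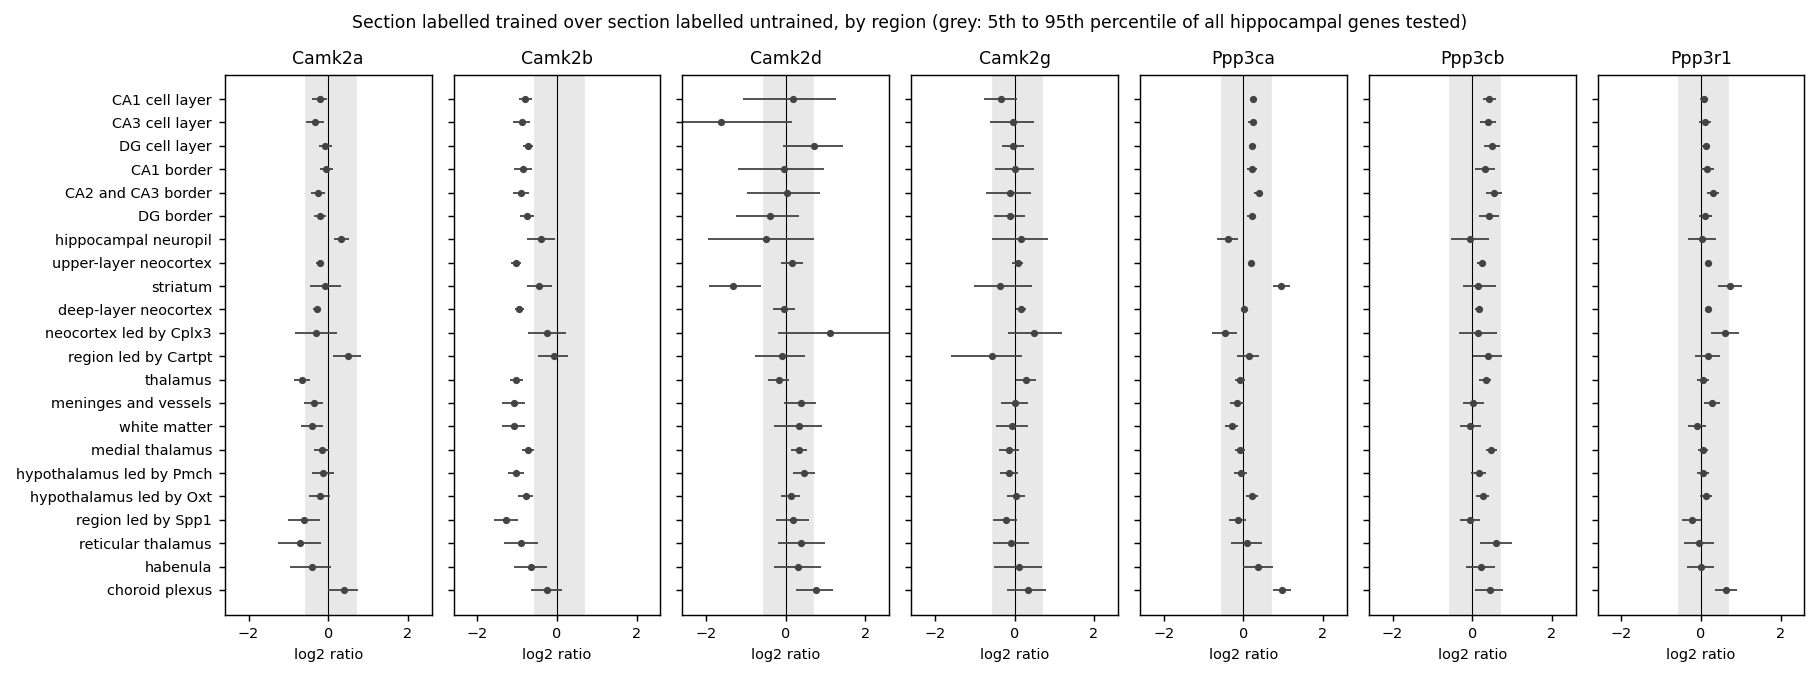
The log2 ratio of the trained over the untrained section for each gene in the 22 regions, with 95% counting intervals and a grey band from the 5th to the 95th percentile of all hippocampal genes tested. Camk2b lies below 0 in all 22 regions, Ppp3cb lies above 0 in 19, and Camk2g in 10.

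The Camk2a share of CaMKII UMIs was higher in the trained section, at 49.6% (48.3 to 51.0%) against 40.5% (39.7 to 41.2%) in the hippocampus and 35.0% (34.2 to 35.8%) against 31.8% (31.3 to 32.3%) in the rest of the section. The Ppp3ca share of catalytic UMIs was close in both, as given above. The regional pattern of each gene was alike in the 2 sections. Over the 22 regions, Pearson's r of log2(CPM + 1) between sections was 0.97 for Camk2a and Ppp3r1, 0.96 for Ppp3ca and Ppp3cb, 0.94 for Camk2b, 0.92 for Camk2g and 0.85 for Camk2d. These r values, and those that follow, describe regions that share libraries and neighbouring tissue, and carry no p.

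Among 4911 other genes with at least 1000 UMIs in each section, those most like Camk2a across regions were Ddn (r = 0.91 and 0.94), Fbxl16 (0.90 and 0.90) and Psd (0.90 and 0.89). For Camk2b they were Rapgefl1 (0.94 and 0.94), Ncdn (0.92 and 0.96) and Arf3 (0.92 and 0.92). For Ppp3ca they were Wasf1 (0.96 and 0.97), Ptk2b (0.94 and 0.96) and Cnksr2 (0.93 and 0.95), for Ppp3cb Pja2 (0.93 and 0.95), Frrs1l (0.93 and 0.93) and Cyfip2 (0.93 and 0.92), and for Ppp3r1 Chn1 (0.96 and 0.95), Wasf1 (0.95 and 0.95) and Calm2 (0.95 and 0.95). The likeness was weaker for Camk2d, with Rims3 (0.83 and 0.82), Gpr153 (0.80 and 0.81) and Timp2 (0.80 and 0.79), and for Camk2g, with Gfra2 (0.77 and 0.83), Ccl27a (0.71 and 0.76) and Fam57b (0.68 and 0.70). Between members, r was 0.94 and 0.95 for Ppp3ca and Ppp3r1, 0.84 and 0.85 for Camk2a and Camk2b, and -0.60 and -0.52 for Camk2a and Camk2d.

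The deposited tables of Moran's I, a score of how much neighbouring spots share a level, ranked Camk2a 42nd of 20513 genes in the trained section (I = 0.419) and 16th of 21498 in the untrained section (0.536). Ppp3ca was close behind at ranks 48 and 33 (0.415 and 0.493). Ppp3r1 (0.306 and 0.377) and Camk2b (0.211 and 0.371) followed, and Ppp3cb (0.163 and 0.195), Camk2g (0.125 and 0.198) and Camk2d (0.107 and 0.172) were lowest. Every value was higher in the untrained section, which was also the deeper one. No order between sections was read from it.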

How the data were processed

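The counts analysed were UMIs per gene and spot in the deposited filtered matrices, which the authors had made with Space Ranger 2.0.0 on mm10. All deposited spots lay under tissue. The deposited tables also held a Moran's I score per gene by the authors, whose UMI totals matched the matrices for all 20513 and 21498 genes, and a p-value and a normalized signal by the authors, neither used here. The sections shared 3448 spot barcodes, which mark array positions.

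Clusters came from leidenalg 0.10.2 and igraph 0.11.9 after scikit-learn 1.9.0, intervals from scipy 1.17.1, and plots from matplotlib 3.10.9, under Python 3.11.15 with pandas 2.3.3 and numpy 2.4.6. The members and lists were chosen with earlier results of these data known. Both sections were clustered together on 918 variable genes (30 components, 15 neighbours, Leiden resolution 1.5, spots of at least 500 UMIs). Members, mitochondrial, ribosomal and haemoglobin genes and the pathway, dendritic, neuronal and cell type lists were left out. Markers used only to name regions could enter. Hippocampal clusters, picked by leading genes and position, were divided again at resolution 1.5. The subcluster with the highest marker score gave each cell layer, subclusters with a CA1, CA2, CA3 or DG score above 1 gave borders, and the rest gave neuropil, within patches of at least 30 spots that held layer spots. These rules were set after maps had been seen, and 240 and 186 spots had no region.

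Intervals were exact Poisson for CPM, Clopper-Pearson for shares and conditional binomial for ratios, at 95%. Ratios had a pseudocount of 0.5 UMI. Genes needed 200 UMIs within a section and 400 between sections. Named list genes were those past 1.5-fold in both sections, at most 5 per list and direction, and 3 genes of highest likeness per member. The neuropil ratios of Camk2n1 and Ddn were given outside this rule. The ratios and intervals were tested on Poisson counts drawn at pooled rates, so that test covered counting error only and not spread between spots or errors in the classes. Alternatives covered scaling, weighting, depth, side, clustering, class limits, pseudocount and filter. Replication was absent, so depth sets only the counting error.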

Additional observations from a re-analysis of the deposited data

Results flagged for a closer look

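For Camk2a and Ppp3ca the ratio of the trained over the untrained section had opposite signs in hippocampal neuropil and in the cell layers, and the difference between the 2 places was not tested, since each label held 1 section. The log2 ratio of Camk2a was 0.33 (0.14 to 0.53) in neuropil and -0.19 (-0.30 to -0.09) in the cell layers. That of Ppp3ca was -0.39 (-0.66 to -0.12) in neuropil and 0.26 (0.21 to 0.31) in the cell layers. In neuropil Camk2a had 0.50 on the left side and -0.09 on the right, so its sign rested on the left side, and Ppp3ca had -0.40 and -0.35. The neuropil class also differed in make-up. A subcluster led by Ddn, Hopx and Sowaha gave 102 trained and 20 untrained spots and one led by Cabp7, Ddn and Dio2 gave 35 and 47. Within these subclusters Camk2a was 1293 against 1219 CPM and 826 against 802 CPM, with intervals that overlapped, and Ppp3ca 494 against 605 CPM and 510 against 670 CPM, lower in the trained section in both, with intervals that also overlapped.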

How the results depend on the processing

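In both sections Camk2a stayed higher in neuropil under all 13 alternatives tried. Its log2 ratio in the trained and untrained section was 1.64 and 1.07 without mitochondrially encoded genes, 2.53 and 1.78 scaled to the general neuronal genes, and 1.45 and 1.23 at Leiden resolution 2.0, which left 103 and 20 neuropil spots. It was 0.65 and 0.50 with border spots counted as neuropil, a setting chosen after seeing the data. In the trained section it was 1.03 with layer spots restricted to those with at least 3 neighbours of their layer, 1.47 on the left side and 0.78 on the right. Scaled to the neuronal genes, 2 members were higher and 1 lower past 1.5-fold in the trained section and 1 lower in the untrained section, Camk2b turned to 0.30 in the trained section, and Camk2g turned to 0.24 in the untrained section. With border spots as neuropil, 0 were higher and 3 lower in the untrained section. Camk2d turned to -0.48 on the right side of the untrained section and, from 0.40, to -0.44 in the trained section with spots thinned to 1000 UMIs. The Camk2a share of hippocampal CaMKII UMIs was 61.1% and 47.5% with spots thinned to 1000 UMIs, and 54.4% on the left and 47.6% on the right of the trained section. The Ppp3ca share of catalytic UMIs was 82.4% thinned and 78.4% on the left side of the trained section, and 80.7% on the left side of the untrained section. The cause of these changes was not tested. Camk2b remained lower in the trained section past 1.5-fold under all 12 alternatives (-0.90 to -0.77), and Camk2a between sections ranged from -0.24 to 0.13. No paired analysis was possible because each group held 1 section. Camk2d, with 8 and 19 UMIs in neuropil, had wide counting intervals there.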
